A study of Homo sapiens with 12 samples.

Results

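The 9 genes described here encode the enzymes that write, copy and remove cytosine methylation in human DNA: the methyltransferases DNMT1, DNMT3A and DNMT3B, the maintenance factor UHRF1, the oxidases TET1, TET2 and TET3, and the DNA glycosylases TDG and MBD4. They were chosen by name, with no measured value in the rule but with earlier results of these data known. Each was found in exactly 1 of the 57908 loci of the deposited table. All 9 loci were among the 15833 that reached 1 FPKM (mapped fragments scaled to transcript length and library size) in 2 or more samples and were tested. The DNMT1 locus (XLOC_027176) also names S1PR2, a protein-coding gene, and the MBD4 locus (XLOC_038051) also names protein-coding EFCAB12 and the pseudogene RPL32P3. Values given for DNMT1 and MBD4 therefore belong to loci that cannot be split between these genes. The loci of TET1 and TET3 each also name 1 noncoding RNA (AL513534.1 and AC073046.1), and the other 5 loci hold the member alone.

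DNA methylation in mammals is placed on CpG dinucleotides by the de novo enzymes DNMT3A and DNMT3B and copied at the replication fork by DNMT1, which UHRF1 brings to hemimethylated DNA. TET enzymes oxidise 5-methylcytosine stepwise to hydroxymethyl-, formyl- and carboxylcytosine. TDG cuts out formyl- and carboxylcytosine, and both TDG and MBD4 remove thymine from the G:T mismatches left when 5-methylcytosine deaminates. Base excision repair then restores the cytosine. HCT116, an established human colorectal carcinoma line, is widely used to study DNMT1 and DNMT3B through knockout derivatives.

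HCT116 cells carried 1 of 3 transiently transfected plasmids. Control cells, labelled WT, are called GFP cells after their titles, although the design text speaks of vector. The overexpressing cells received NSE4A-flag or SMC5-flag and are called NSE4 and SMC5 cells. NSE4A, encoded by NSMCE4A, and SMC5 are subunits of the SMC5/6 chromosome maintenance complex. After 24 h each was split and given PBS or 1000 nM doxorubicin, a DNA-intercalating topoisomerase II poison, for another 24 h, which gave 6 groups of 2 libraries. The study asked how the complex acts on growth and on killing by doxorubicin. The labels name no selection of transfected cells. They also do not say whether the 2 libraries of a group were separate cultures, so the p-values below reflect only how far these samples spread, and that spread may be technical.

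Estimated depth was 13.42 to 19.46 M (mega) fragments per library. The 2 columns of doxorubicin-treated SMC5 cells held 1091 identical values and only 7 loci above 0 in 1 column alone, against 4216 to 5291 in the other pairs. At low FPKM, where sampling noise is largest, the SD of their log2 ratio was 0.16 against 1.11 to 1.18 in the other pairs, less than sampling of separate libraries would give. More abundant loci did differ between them, such as DNMT1 (74.1 and 84.6) and UHRF1 (34.8 and 41.4). They were counted as 1 sample, their mean, which leaves 11 samples. The targeted genes fitted their labels: NSMCE4A was at 4069 to 6287 FPKM in the 4 NSE4 samples and at 32.6 to 89.4 in the other 7, and SMC5 at 811 to 979 in 3 samples and 7.02 to 34.4 in the other 8. CDKN1A, a p53 target, was at 906 to 1118 FPKM in the 5 doxorubicin samples and at 292 to 359 in the 6 PBS samples. Of 8 colorectal epithelial markers 7 reached 1 FPKM in at least 1 sample (EPCAM 123 to 146, but VIL1 only 0.0065 to 2.43). CDX1 stayed at or below 0.149. Of 4 leukocyte markers PTPRC stayed at or below 0.0378, and only CD14, whose locus also names NDUFA2, reached 1 FPKM, at 85.2 to 122. Of 5 fibroblast markers COL1A1 (15.6 to 27.0) and PDGFRB (up to 1.21) did. Of the endothelial markers VWF (at or below 0.223) and CDH5 (at or below 0.142) did not, and no locus was named PECAM1. In such bulk samples a change in the share of cells and a change of RNA per cell cannot be told apart.

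The 9 genes spanned a wide range of levels, and their order was nearly fixed. Per length, in FPKM, the order in PBS samples was DNMT1, UHRF1, MBD4, TDG, DNMT3B, DNMT3A, TET3, TET2 and TET1, from medians of 75.9 for DNMT1 down to 1.68 for TET1, and the doxorubicin samples gave the same order. Ranges over the 6 PBS samples overlapped between MBD4 and TDG, between TDG and DNMT3B and between TET2 and TET1, so these neighbours were not separated beyond their spread. The other neighbours did not overlap: UHRF1 (21.5 to 38.1 FPKM) lay below DNMT1 (48.9 to 93.0) and above MBD4 (8.68 to 13.4). The maintenance pair was thus more abundant than every de novo enzyme, oxidase and glycosylase in all 11 samples.

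**Figure D1:**
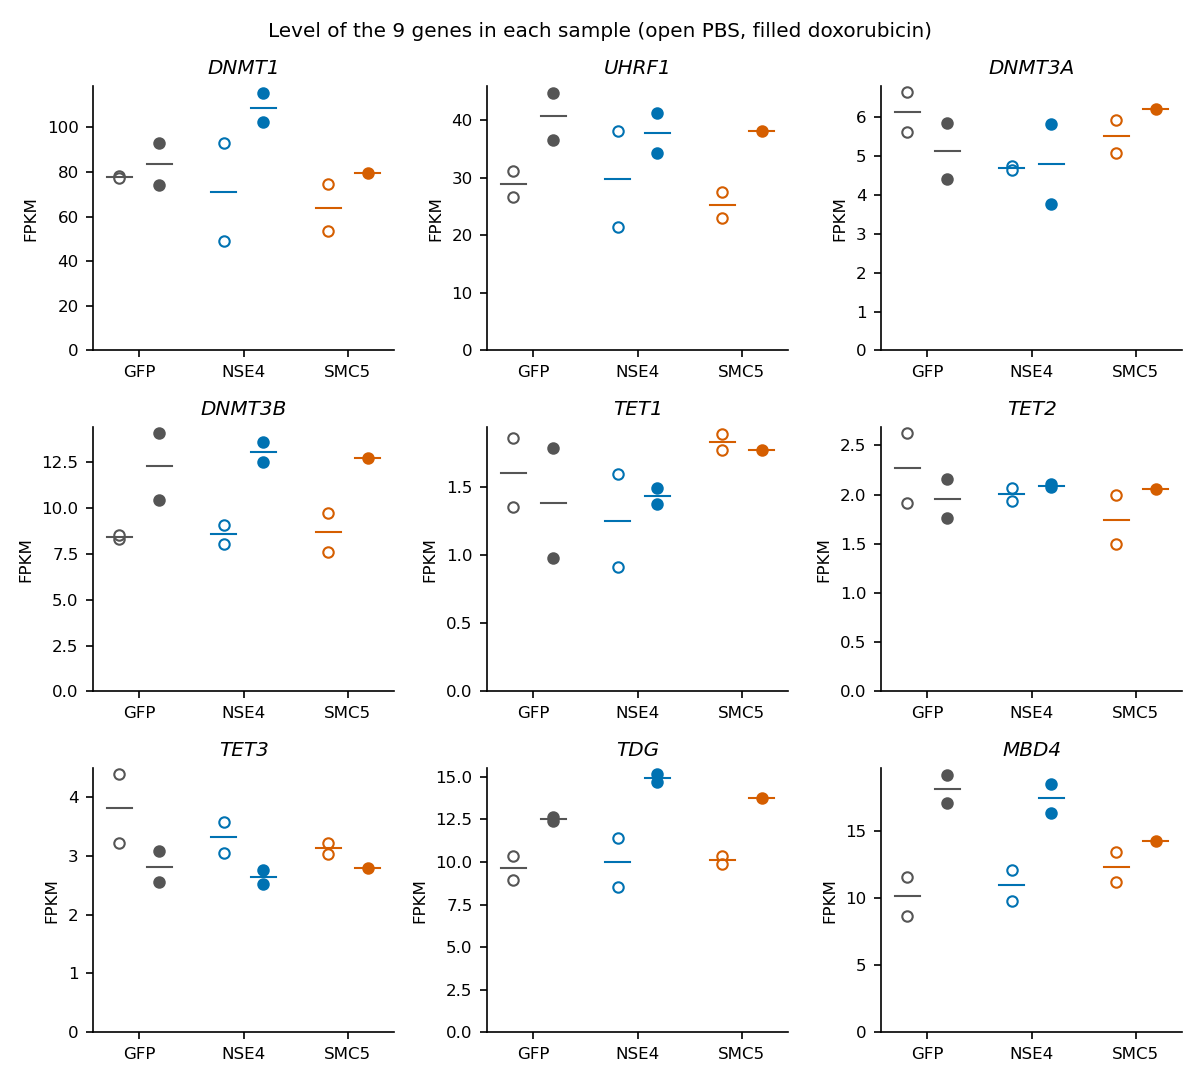
FPKM of the 9 genes in the 11 samples by plasmid, on axes from 0, with 1 open (PBS) or filled (doxorubicin) point per sample and a line at each group mean; the 2 near-identical columns of doxorubicin-treated SMC5 cells are 1 point. DNMT3B, TDG and MBD4 are higher in each of the 5 doxorubicin samples than in any of the 6 PBS samples, while the other 6 genes overlap. Of all tested loci 22.0% are higher without overlap.

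With doxorubicin averaged over the 3 plasmids, 4 of the 9 genes rose and 0 fell, where 28.0% of all tested loci rose and 23.6% fell. DNMT3B, TDG, MBD4 and UHRF1 rose by 0.43 to 0.54 on the log2(FPKM + 1) scale, a scale that understates changes of low genes. No gene of the TET family passed the test, and neither did DNMT1 or DNMT3A. The members' median difference was 0.37 against 0.03 over all loci. With so many loci responding, these counts do not set the 9 genes apart.

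Among the maintenance genes, DNMT1, the copying methyltransferase, was at 78.4 and 77.4 FPKM in GFP cells with PBS and at 74.1 and 92.9 with doxorubicin. In NSE4 cells it was at 48.9 and 93.0 with PBS and at 102.5 and 115.2 with doxorubicin, and in SMC5 cells at 53.3 and 74.4 against 79.3. The 2 PBS libraries of NSE4 cells thus differed more from each other than the 2 treatments did in GFP cells, and the PBS and doxorubicin ranges overlapped. The average log2 difference was 0.37 (SE 0.17, limma adjusted p = 0.111 by Benjamini-Hochberg over all loci), with a 95% interval of −0.03 to 0.76. Without NSE4 replicate 2, its highest PBS value, the difference was 0.52, the largest of those with each library left out, which began at 0.21. Over all 22 alternatives the difference ran from 0.13 to 0.52.

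UHRF1, which reads hemimethylated CpG and recruits DNMT1, was at 31.2 and 26.6 FPKM in GFP cells with PBS and at 36.6 and 44.8 with doxorubicin. In NSE4 cells it was at 21.5 and 38.1 against 34.3 and 41.3, and in SMC5 cells at 23.0 and 27.6 against 38.1. Only NSE4 replicate 2 among the PBS samples reached the doxorubicin range. UHRF1 rose on average by 0.48 (SE 0.15, limma adjusted p = 0.0294) but in none of the 3 plasmids alone, where the differences were 0.48, 0.38 and 0.58 (limma adjusted p = 0.18, 0.276 and 0.213). The average call held in 16 of 22 alternatives. It was lost with no filter on low loci (limma adjusted p = 0.084), without the 2 PBS libraries of highest mitochondrial share, NSE4 replicate 1 and SMC5 replicate 1 (log2 0.30, limma adjusted p = 0.0654), and without GFP replicate 2, SMC5 replicate 1, or replicate 2 of doxorubicin-treated GFP or NSE4 cells (limma adjusted p = 0.0705 to 0.0735). The ratio of UHRF1 to DNMT1, which compares both genes within a library, was 0.343 to 0.439 in PBS samples and 0.335 to 0.494 in doxorubicin samples, and these ranges overlapped.

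The promoters of these 2 genes are shown because they alone among the 9 hold TTTCGCGC in the windows searched. E2F factors of the cell cycle are known to bind this form of their site. This motif, searched on both strands, occurs in 0.515% of the 35116 RefSeq (GRCh38.p14) windows of 250 bases before to 50 after a start (in 0.63% of genes with a window), and its other form, TTTGGCGC, in 0.652% (0.795% of genes) and in 0 of the members. UHRF1 has 3 windows with different starts, and only the window shown holds the motif. Its sequence is at chr19:4909894-4910143 on the plus strand, up to the start of that window's transcript. The DNMT1 sequence is at chr19:10194944-10195193 on the minus strand, from 240 bases before to 10 after its start, where the motif lies on the opposite strand across the start and reads as its reverse complement. Capitals mark the motif. A match of letters is a description and not a bound site.
UHRF1: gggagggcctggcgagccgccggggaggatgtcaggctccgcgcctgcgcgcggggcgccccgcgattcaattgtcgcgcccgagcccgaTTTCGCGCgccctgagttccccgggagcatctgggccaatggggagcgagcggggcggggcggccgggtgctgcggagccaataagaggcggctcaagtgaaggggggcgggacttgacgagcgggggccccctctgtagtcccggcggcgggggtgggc
DNMT1: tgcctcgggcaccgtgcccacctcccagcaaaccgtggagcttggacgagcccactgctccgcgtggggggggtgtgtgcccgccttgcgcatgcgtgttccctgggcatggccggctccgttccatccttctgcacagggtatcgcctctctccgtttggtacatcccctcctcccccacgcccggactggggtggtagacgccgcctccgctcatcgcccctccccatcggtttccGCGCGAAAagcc

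Of the de novo methyltransferases DNMT3B was called on average over the plasmids and DNMT3A was not, but they were not tested against each other. DNMT3B was at 8.30 and 8.52 FPKM in GFP cells with PBS and at 10.5 and 14.1 with doxorubicin. In NSE4 cells it was at 8.04 and 9.10 against 12.6 and 13.6, and in SMC5 cells at 7.61 and 9.75 against 12.8. The lowest doxorubicin value lay above the highest PBS value, as for 22.0% of all tested loci. The fold of the group means was 1.49. DNMT3B rose by 0.52 (SE 0.10, limma adjusted p = 0.00296) on average and by 0.56 in NSE4 cells (SE 0.16, limma adjusted p = 0.033). The NSE4 call was lost when any 1 library of NSE4 cells, or of GFP cells with PBS, was left out (limma adjusted p = 0.0502 to 0.144). In GFP cells the difference was 0.48 and in SMC5 cells 0.52, and neither passed (limma adjusted p = 0.0534 and 0.103).

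DNMT3A, the other de novo enzyme, was at 5.62 and 6.66 FPKM in GFP cells with PBS and at 4.41 and 5.84 with doxorubicin. In NSE4 cells it was at 4.74 and 4.66 against 3.77 and 5.84, and in SMC5 cells at 5.09 and 5.94 against 6.21. The groups overlapped, and the sign of the difference varied between the plasmids (−0.23 in GFP, 0.00335 in NSE4 and 0.15 in SMC5 cells), the NSE4 value being indistinguishable from 0. Its average difference was −0.03 (limma adjusted p = 0.879) with a 95% interval of −0.30 to 0.25. Within each library the ratio of DNMT3B to DNMT3A was 1.28 to 1.95 with PBS (median 1.57) and 2.06 to 3.33 with doxorubicin (median 2.37). The 6 and 5 values did not overlap, but those of DNMT3B alone did not either, and the ratio was not tested. Of all tested loci 22.0% were higher without overlap and 18.6% lower.

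The TET oxidases were the lowest of the genes, and no TET gene passed the test. TET1 was at 1.86 and 1.35 FPKM in GFP cells, 1.59 and 0.911 in NSE4 cells and 1.77 and 1.89 in SMC5 cells with PBS. With doxorubicin the values were 1.78 and 0.978, 1.38 and 1.49, and 1.77 in the same order of plasmids. The 2 treatments covered the same range, and the average log2 difference of −0.02 had a 95% interval of −0.34 to 0.31 (limma adjusted p = 0.937).

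TET2 was at 2.63 and 1.92 FPKM in GFP cells, 1.93 and 2.07 in NSE4 cells and 1.99 and 1.49 in SMC5 cells with PBS, against 2.16 and 1.76, 2.11 and 2.07, and 2.06 with doxorubicin. The doxorubicin values all lay within the PBS range, and the average difference was 0.02 (95% interval −0.22 to 0.27, limma adjusted p = 0.887).

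TET3, the most abundant of the 3 oxidases, was at 4.39 and 3.21 FPKM in GFP cells, 3.04 and 3.57 in NSE4 cells and 3.03 and 3.22 in SMC5 cells with PBS. With doxorubicin it was at 2.55 and 3.07, 2.52 and 2.76, and 2.78. Only 1 doxorubicin sample, replicate 2 of GFP cells, overlapped the PBS range. The average difference of −0.23 (SE 0.10, limma adjusted p = 0.0867) did not pass, and 5 of 21 alternatives called it lower, with values from −0.30 to −0.17 over all of them. Among these, leaving out the PBS library of GFP replicate 2 gave a limma adjusted p of 0.0403. For these low genes the pseudocount of 1 FPKM shrinks the log2 difference.

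Both glycosylase loci were higher in every doxorubicin sample than in any PBS sample, as were 22.0% of all tested loci. TDG, which excises formyl- and carboxylcytosine and mismatched thymine, was at 8.96 and 10.4 FPKM in GFP cells with PBS and at 12.4 and 12.6 with doxorubicin. In NSE4 cells it was at 8.56 and 11.4 against 14.7 and 15.2, and in SMC5 cells at 10.4 and 9.86 against 13.8. TDG rose by 0.43 on average (SE 0.09, limma adjusted p = 0.00328) and by 0.55 in NSE4 cells (limma adjusted p = 0.0189). The NSE4 call was lost without NSE4 replicate 1 (limma adjusted p = 0.0951) or either doxorubicin library of NSE4 cells (0.0675 and 0.084). In GFP and SMC5 cells the differences were 0.34 and 0.41 (limma adjusted p = 0.0939 and 0.125).

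The MBD4 locus, named for a thymine glycosylase with a methyl-CpG-binding domain, was at 8.68 and 11.6 FPKM in GFP cells with PBS and at 17.1 and 19.2 with doxorubicin. In NSE4 cells it was at 9.80 and 12.1 against 16.4 and 18.5, and in SMC5 cells at 11.2 and 13.4 against 14.2. The SMC5 sample was the lowest of the 5 doxorubicin samples and the SMC5 libraries included the highest PBS value. The locus rose by 0.79 in GFP cells (SE 0.17, limma adjusted p = 0.00877), by 0.63 in NSE4 cells (limma adjusted p = 0.0231) and by 0.54 on average (SE 0.10, limma adjusted p = 0.00277), while the SMC5 difference was 0.20 (limma adjusted p = 0.536). The call in GFP cells was lost without GFP replicate 1 or without replicate 2 of doxorubicin-treated GFP cells (limma adjusted p = 0.0573 and 0.0582), and that in NSE4 cells without NSE4 replicate 1 (0.124) or either doxorubicin library of these cells (0.0563 and 0.115). The difference between the doxorubicin responses of SMC5 and GFP cells was −0.59 (95% interval −1.20 to 0.01), with an unadjusted limma p of 0.0525 and an adjusted p of 1.

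DNMT3B, TDG and MBD4 were the 3 genes of the 9 with no overlap between treatments, where 22.0% of all tested loci were higher without overlap and 18.6% lower. The sequence before the listed start of each is shown because these genes share this lack of overlap and these sequences differ in CpG content. The 250 bases before the listed start held 3 CpG in DNMT3B (chr20:32779602-32779851, plus strand), 22 in TDG (chr12:103965622-103965871, plus strand) and 26 in MBD4 (chr3:129439949-129440198, minus strand), in RefSeq on GRCh38.p14. Capitals mark each CG. The set of windows used here held 1 start for each of these 3 genes, which need not be the main start of the gene. Other possible starts were not examined, so the CpG counts hold for these stretches only. Methylation itself was not measured.
DNMT3B: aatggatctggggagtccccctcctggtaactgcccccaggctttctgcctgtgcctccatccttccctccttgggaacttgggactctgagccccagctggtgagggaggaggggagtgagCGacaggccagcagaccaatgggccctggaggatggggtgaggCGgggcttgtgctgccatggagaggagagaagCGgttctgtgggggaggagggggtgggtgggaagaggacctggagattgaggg
TDG: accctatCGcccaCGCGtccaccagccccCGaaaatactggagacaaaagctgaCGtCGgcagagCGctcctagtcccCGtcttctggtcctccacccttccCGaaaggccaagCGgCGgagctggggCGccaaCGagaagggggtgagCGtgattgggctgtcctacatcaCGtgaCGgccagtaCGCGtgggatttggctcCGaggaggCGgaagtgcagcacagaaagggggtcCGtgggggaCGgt
MBD4: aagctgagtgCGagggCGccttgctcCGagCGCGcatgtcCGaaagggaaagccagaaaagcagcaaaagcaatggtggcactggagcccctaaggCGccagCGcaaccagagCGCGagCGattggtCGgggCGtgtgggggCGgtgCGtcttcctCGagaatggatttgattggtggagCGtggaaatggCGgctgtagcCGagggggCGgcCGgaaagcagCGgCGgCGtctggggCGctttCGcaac

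The CCAAT box, which NF-Y is known to bind, was found on either strand in windows of DNMT3B, TDG and MBD4 and also of UHRF1, TET1 and TET3, that is 6 of the 9 genes, where 39.7% of all genes and 34.6% of all windows hold it. GGGCGG, a site known for SP1, was found for MBD4, UHRF1, DNMT3A, TET2 and TET3, that is 5 of the 9, where 48.3% of all genes and 45.0% of all windows hold it. The p53 half-site was in 6.63% of all windows and in none of the 20 windows of the 9 genes.

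**Figure D2:**
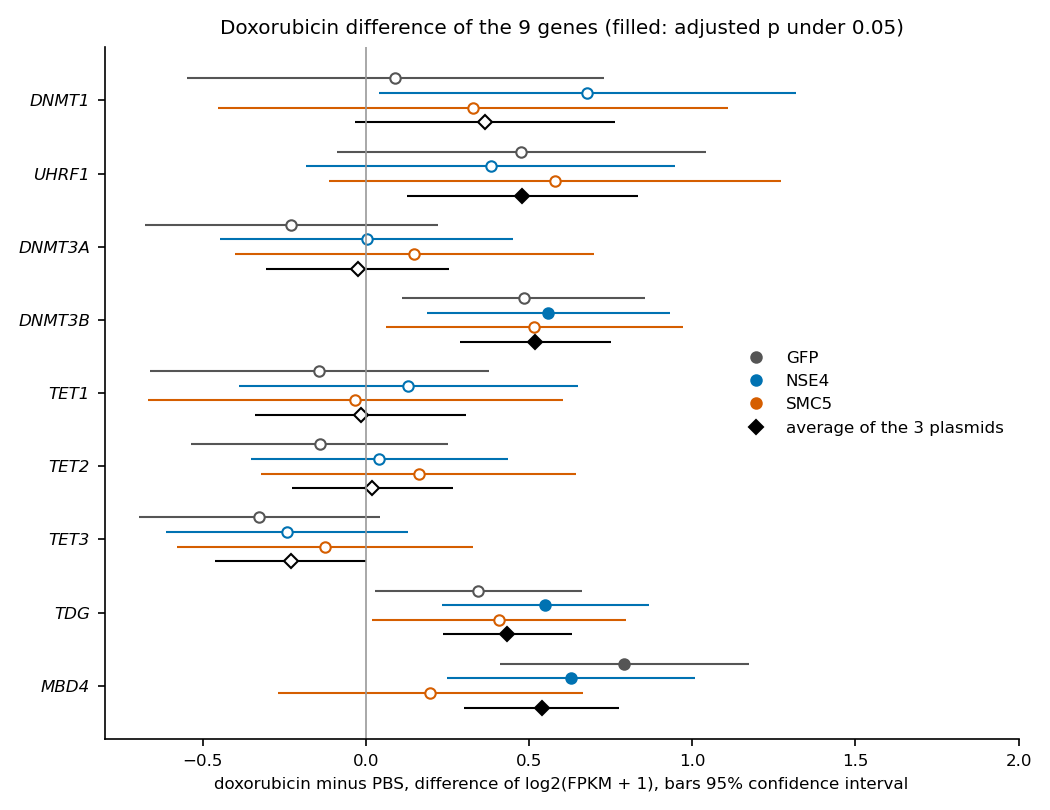
Difference between doxorubicin and PBS on the log2(FPKM + 1) scale for each gene, in GFP, NSE4 and SMC5 cells (circles) and averaged over the 3 plasmids (diamonds), with 95% confidence intervals and filled symbols where the limma adjusted p is under 0.05. DNMT3B, TDG, MBD4 and UHRF1 are filled for the average, and all 3 TET genes have intervals that reach 0.

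By plasmid, 1 gene rose in GFP cells (MBD4, against 17.0% of loci) and 3 rose in NSE4 cells (DNMT3B, TDG and MBD4, against 16.3%). In SMC5 cells limma called 0 of 9, with 2 at an unadjusted p under 0.05 (DNMT3B and TDG), against 11.0% of loci that rose. None fell in any plasmid, where 14.1%, 13.9% and 9.87% of loci fell. The SMC5 comparison rests on 1 doxorubicin sample and has wider intervals. The count in NSE4 cells was 0 without NSE4 replicate 1 or either of the doxorubicin libraries, and that in GFP cells was 0 without replicate 1 of the PBS or replicate 2 of the doxorubicin libraries. Without NSE4 replicate 2 the NSE4 count was 4, with DNMT1 and UHRF1 called and DNMT3B not, and the GFP count was 2 without either PBS library of NSE4 cells or without replicate 1 of doxorubicin-treated GFP cells. In a fit on the groups compared alone, both the GFP and the NSE4 count were 0.

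The test called none of the 9 genes for the plasmids themselves. NSE4 against GFP cells gave 0 calls with PBS and 0 with doxorubicin in limma (0 at an unadjusted p under 0.05 in each), where 0.0442% and 0.0568% of loci were called. SMC5 against GFP cells also gave 0 and 0 (again 0 at an unadjusted p under 0.05), where 0.00% and 0.0316% of loci were called. With PBS that left even the SMC5 locus uncalled, at 875 and 979 FPKM in SMC5 cells against 33.5 and 8.76 in GFP cells. The lack of calls in that comparison therefore does not show an absence of change. Both sets of comparisons share the GFP samples. With PBS the differences ran from −0.32 (DNMT3A) to 0.11 (MBD4) for NSE4 and from −0.30 (DNMT1) to 0.27 (MBD4) for SMC5. With doxorubicin they ran from −0.10 to 0.39 (DNMT1) for NSE4 and from −0.33 (MBD4) to 0.24 (DNMT3A) for SMC5. The response to doxorubicin differed from that of GFP cells for 0 of 9 genes with either plasmid by limma (0 at an unadjusted p under 0.05), where 0.0316% of loci were called for NSE4 and 0.0189% for SMC5. The differences in response ran from −0.16 (MBD4) to 0.59 (DNMT1) for NSE4 and from −0.59 (MBD4) to 0.38 (DNMT3A) for SMC5, so the data do not show that the plasmids act alike.

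Within the PBS samples DNMT1 and UHRF1 spread widely between the 2 libraries of NSE4 cells. Both were lowest in NSE4 replicate 1 and SMC5 replicate 1 (DNMT1 48.9 and 53.3, UHRF1 21.5 and 23.0) and highest in NSE4 replicate 2 (93.0 and 38.1). All 11 tested replication genes were also lowest in NSE4 replicate 1: MCM2, a subunit of the replicative helicase, was at 18.2 FPKM there and at 22.4 to 39.7 in the other 5 PBS samples, and MCM5 at 12.9 against 20.3 to 38.4. Mitochondrial loci took 46.2% of the FPKM sum in NSE4 replicate 1 and 40.9% in SMC5 replicate 1, against 28.9 to 35.4% in the other 4 PBS libraries and 34.9 to 45.6% in the doxorubicin libraries, and their part in these values was not tested. With both libraries left out, DNMT3B, TDG and MBD4 kept their average rise and UHRF1 did not. DNMT1 then had an average difference of 0.13.

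**Figure D3:**
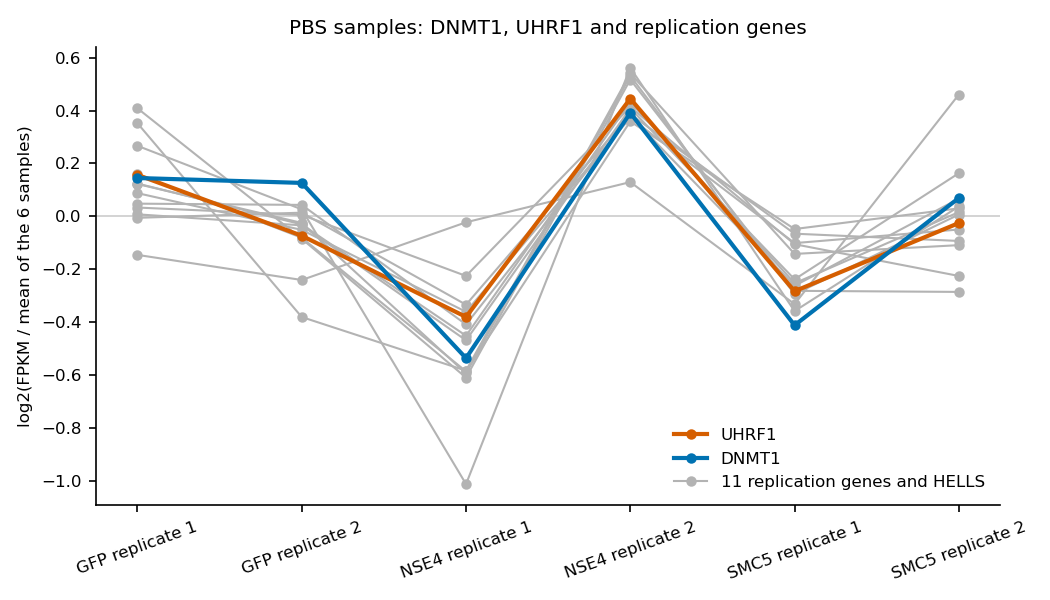
DNMT1, UHRF1 and, in grey, 11 replication genes and HELLS in the 6 PBS samples, as log2 of FPKM over the mean of those samples, with lines joining the points of a gene. DNMT1, UHRF1 and all 11 replication genes are lowest in NSE4 replicate 1, while HELLS is lowest in another sample.

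The loci whose profile over the 11 samples was most like a member's were sought among 7510 by the root mean square difference of centred log2(FPKM + 1) values. For UHRF1 they were MCM2 (0.0798), DHDH (0.0799) and RUSC1 (0.0891), against a median of 0.362 over those loci. For DNMT3B they were PLXNB2 (0.0440), ADGRE5 (0.0528) and ITPA (0.0600), and for MBD4 CYHR1 (0.0908), COQ6 (0.0926) and WDR83 (0.0957). MCM2 and DHDH were equally close to UHRF1 at any useful precision. The points share libraries and their depth, and the values are a description.

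Genes that work with the 9 enzymes responded in both directions to doxorubicin. Over 9 lists with 62 tested entries, some in 2 lists, 16 rose and 22 fell on average over the 3 plasmids, beside 28.0% and 23.6% of all loci, whose median was 0.03. Loci that also name another coding gene were left out.

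Among 7 tested partners of maintenance and de novo methylation 4 rose and 2 fell, with a median log2 difference of 0.30. PCNA, the sliding clamp that also tethers DNMT1, rose by 2.24, from 80.6 to 134 FPKM with PBS to 458 to 518 with doxorubicin. HELLS, a remodeller needed for DNA methylation, rose by 1.07 and its partner CDCA7 by 0.46 (limma adjusted p = 0.000263 and 0.000852). Of the 11 tested replication genes 7 rose and 0 fell, with a median of 0.60. RRM1, the large subunit of ribonucleotide reductase, rose by 1.21 and CCNE2, a cyclin of S phase entry, by 1.69. The average difference of UHRF1 (0.48) and DNMT1 (0.37) lay below that median. The DNMT1 locus also names coding S1PR2, so the list rule would have left it out.

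The methyl donor pathway held a large fall. Of 12 tested genes 2 rose and 4 fell (median −0.04). MAT2A, which makes S-adenosylmethionine, the methyl donor of all DNMT enzymes, fell by 1.02, from 196.5 to 232.6 FPKM to 98.4 to 115.5, and AHCY, which clears the product S-adenosylhomocysteine, fell by 0.43. Of the methyltransferase genes themselves, DNMT3B rose, and DNMT1 (0.37) and DNMT3A (−0.03) did not pass the test.

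Among 7 tested TET cofactor and regulator genes 1 rose and 5 fell (median −0.33). IDH1, the cytosolic source of the TET cosubstrate 2-oxoglutarate, fell by 0.80, from 54.3 to 61.8 FPKM to 32.3 to 34.8, and the mitochondrial IDH2 rose by 1.06, from 24.8 to 32.1 to 58.5 to 63.3. DCAF1, a substrate receptor for ubiquitin ligation, fell by 0.55. TET1, TET2 and TET3 themselves differed by −0.02, 0.02 and −0.23 with no call.

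The MBD4 locus, which rose as TDG did, also names coding EFCAB12, and the list rule would have left it out. Of 8 other tested repair glycosylases 0 rose and 4 fell (median −0.17). Among those that fell were NTHL1, which removes oxidised pyrimidines, by 0.77, MPG, which removes alkylated purines, by 0.82, and NEIL2 by 0.34. Of 6 tested genes of the later steps of base excision repair 0 rose and 2 fell (median −0.03): APEX1, the endonuclease that cuts the abasic site, fell by 0.45, and PARP1, a strand break sensor, by 0.29. Of 5 tested methyl-CpG readers UHRF2, a paralogue of UHRF1, rose by 0.30, and ZBTB4 and MBD2 fell by 0.46 and 0.20 (median −0.20).

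Few genes often described as methylated were tested, and those few gave no common direction. A gene silent in all samples could not pass the filter of 1 FPKM, so the result does not cover silent genes. Of 18 germline genes only MAGEA3 and MAGEB2 were tested, at 39.0 to 51.9 and 102 to 114 FPKM over all samples, and neither passed in limma (0 of 2, with 0 at an unadjusted p under 0.05). Of 16 genes often silenced in colorectal cancer 4 were tested, of which 1 rose and 3 fell. CDKN2A and MGMT fell by 1.46 and 1.63, TIMP3 rose by 0.37, and VIM, named after its value was seen, fell by 0.44. In every plasmid comparison and difference of responses 0 of the 62 entries were called.

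**Figure D4:**
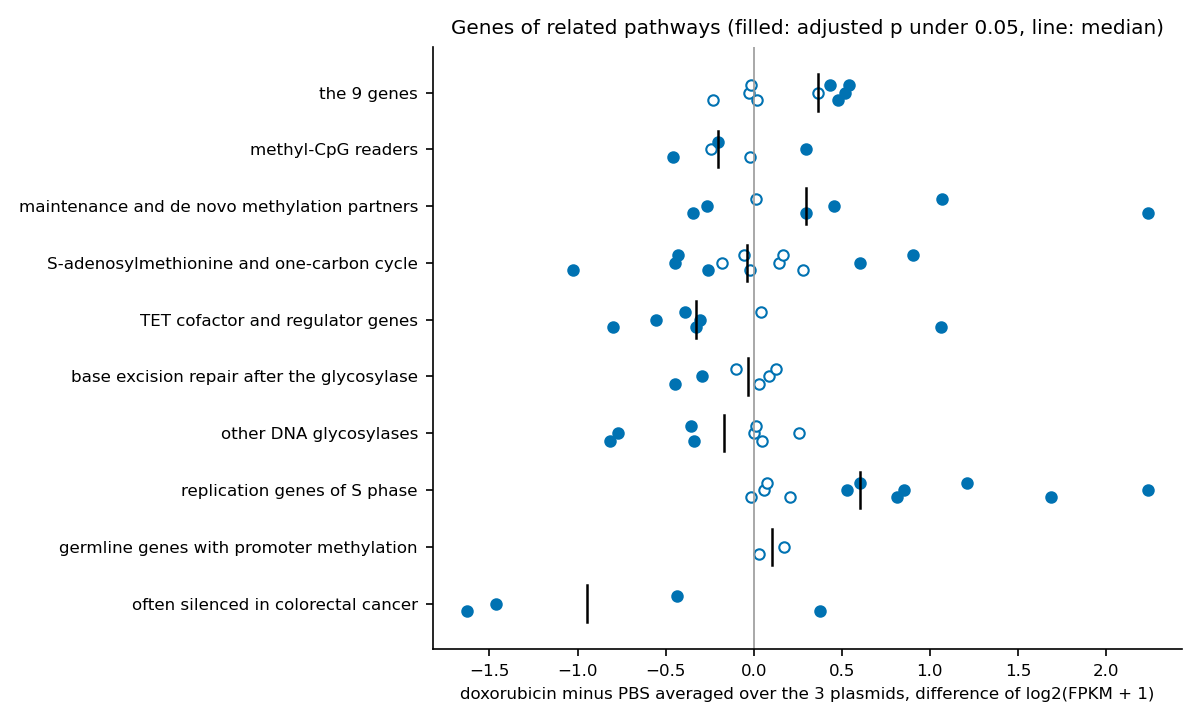
Average doxorubicin difference on the log2(FPKM + 1) scale for each tested gene of the 9 lists, with 1 point per gene (filled where the limma adjusted p is under 0.05), a line at each median and the 9 genes on top. The replication genes have the highest median (0.60), and the colorectal cancer genes the lowest.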

How the data were processed

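Messenger RNA libraries of HCT116 cells were measured as FPKM, which the authors made with TopHat and Cufflinks per the submitters' processing notes; versions and genome build are not given in the sources used here. The deposited table has 57908 loci and 12 columns, all used, grouped by sample title. FPKM is not a count, so limma 3.58.1 (R 4.3.3) was run with an intensity trend on log2(FPKM + 1), with all 6 groups in 1 model, 5 residual degrees of freedom and Benjamini-Hochberg adjustment over 15833 loci in each of 10 comparisons, at a threshold of 0.05. "Rose" and "fell" refer to that threshold. The test was checked on simulated data.

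The members, lists and tests were chosen with earlier results of these data known. Named genes were the 9 members, up to 3 called genes of smallest p per list, the label checks, and the 3 loci of most similar profile (single symbol, mean of at least 5 FPKM) for each of the 3 members with the largest average difference. A gene that this rule names is not reported here. Locus names of several genes could not be split. GENCODE 29 gave gene types, lengths and GC content only, and no coordinates of the table were used. Promoter windows are from RefSeq GRCh38.p14. Motifs searched on both strands were the E2F forms TTTCGCGC and TTTGGCGC, the CCAAT box, the SP1 site GGGCGG and the p53 half-site. Depth was estimated from FPKM steps of single fragments. Tables were made in Python 3.11.15 (numpy 2.4.6, pandas 2.3.3) and figures with matplotlib 3.10.9. Alternatives were another pseudocount, 2 filters, 2 scalings, a replicate block, the 12 columns separately, the compared groups alone, each library left out, and, chosen after seeing the data, GC adjustment (alone and with the block) and leaving out 2 libraries.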

Additional observations from a re-analysis of the deposited data

How the results depend on the processing

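Average rises of DNMT3B, TDG and MBD4 were called in all 22 alternatives run, and the average count of called genes ranged from 3 to 5 when each library was left out. TET3 was called lower in 5 of 21 alternatives and DNMT1 higher in 2 of 22. In NSE4 cells the count of 3 became 1 without a filter, 0 without the 2 PBS libraries of highest mitochondrial share, 4 with quantile normalization (DNMT1 added) and 0 in a fit on the compared groups alone, and ranged from 0 to 4 over the libraries left out. In GFP cells the count of 1 became 2 with the filter at 5 FPKM, median-ratio scaling, quantile normalization or 12 columns, 3 with GC adjustment (also with the block) and 0 on the compared groups alone, and ranged from 0 to 2. In SMC5 cells 0 became 2 with 12 columns, which counts the near-identical columns separately. The cause of these shifts was not tested, except that the fit on the compared groups alone uses fewer samples.

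Replicate numbers were not taken as pairs: the 10 correlations of same-numbered deviations ran from −0.039 to 0.073. Replicate 1 had the higher mitochondrial share in all 6 groups, and DNMT3B and MBD4 were lower in it in 5 of 5. With the replicate block the counts were 2 in GFP, 4 in NSE4, 1 in SMC5 cells and 5 on average, which added DNMT3B in GFP and SMC5 cells (limma adjusted p = 0.0152 and 0.0326) and DNMT1 in NSE4 cells and on average (0.0336 and 0.0384), and with GC adjustment and the block 3, 3, 1 and 5.

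Directions turned only for the following differences. DNMT3A in NSE4 cells was −0.00123 with a pseudocount of 0.1, −0.00544 with median-ratio scaling, −0.051 with quantile normalization and −0.085 with GC adjustment (also with the block). Quantile normalization gave −0.058 for TET2 in NSE4 cells and −0.068 on average. GC adjustment, with or without the block, gave −0.012 for DNMT1 in GFP cells, 0.029 for TET1 in SMC5 cells and 0.035 on average. Without the 2 libraries TET1 was 0.048 on average and UHRF1 −0.017 in NSE4 cells. Leaving out each library gave −0.072 to 0.25 for DNMT1 in GFP cells, −0.11 to 0.061 for DNMT3A on average and −0.26 to 0.26 in NSE4 cells, and −0.017 to 0.78 for UHRF1 in NSE4 cells. TET1 ranged from −0.097 to 0.067 on average, −0.39 to 0.10 in GFP, −0.090 to 0.35 in NSE4 and −0.11 to 0.040 in SMC5 cells, and TET2 from −0.032 to 0.073 on average and −0.30 to 0.016 in GFP cells. A group left with 1 library is assumed to vary like the others. The filter at 5 FPKM tests no TET gene, and the compared groups alone give no separate average.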
